A study of Mus musculus with 4 samples.

Results

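The small leucine-rich proteoglycans are a family of short secreted core proteins that sit on the collagen fibrils of cartilage, bone, tendon and marrow. The 10 family members followed here were Dcn, Bgn, Aspn, Fmod, Lum, Prelp, Omd, Kera, Ogn and Epyc, taken as the rows of the count matrices whose gene symbol equals one of these names, out of 53703 annotated genes in all. All 10 were present and all 10 passed the gene filter that left 27671 genes. The rule that picks them uses their names, and their levels were read in 15 groups of cells that were set apart by other marker genes.

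The data came from single-cell RNA sequencing (10x Chromium 3' chemistry) of metaphyseal cells of femur and tibia, from the trabecular part of a long bone next to the growth plate. Mice were on a C57/BL6 background, of both sexes and 12 weeks of age, and hematopoietic cells had been depleted by antibodies against lineage markers, CD45 and CD117. Lats2iECKO mice carried Lats2 lox/lox alleles and Cdh5(PAC)-CreERT2, a tamoxifen-inducible Cre driven by the promoter of the endothelial cadherin gene. The controls were Cre-negative littermates that got the same tamoxifen, although the deposited labels call them untreated. Each genotype had 2 libraries, given as biological replicates. Lats2 encodes a kinase of the Hippo pathway, which restrains the transcriptional co-activators YAP1 and WWTR1 (TAZ). The Cre driver is an endothelial one, and the cartilage, bone and stromal cells are cells in which it is not expected to be active. The question was how the fibril-binding proteoglycans of each mesenchymal cell group differed between the genotypes.

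Core proteins of the family share a curved array of leucine-rich repeats that binds collagen and limits or guides the sideways growth of fibrils. Dcn (decorin) and Bgn (biglycan) carry chondroitin or dermatan sulfate chains, and both also bind transforming growth factor beta. Aspn (asporin) is their closest relative, binds collagen and has an aspartate-rich stretch that binds calcium. Fmod (fibromodulin), Lum (lumican), Kera (keratocan) and Omd (osteomodulin, also called osteoadherin) carry keratan sulfate, and Prelp links collagen to heparan sulfate of basement membranes. Ogn (osteoglycin, or mimecan) and Epyc (epiphycan) belong to a further class, and Epyc is known as a product of growth plate cartilage. In long bones, chondrocytes mature from resting through columnar and cycling to pre-hypertrophic and hypertrophic cells, and osteoblasts lay down bone on the remains of their matrix.

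Most of the members lie beside each other in the genome (GRCm39 coordinates). Dcn, Lum, Kera and Epyc follow one another on chromosome 10, Dcn from 97315275 to 97358155, Lum from 97400990 to 97408577, Kera from 97442728 to 97449554 and Epyc from 97479853 to 97518316. Aspn, Omd and Ogn follow one another on chromosome 13, at 49697609 to 49721057, 49735938 to 49746298 and 49761349 to 49780412. Gaps of 14.88 kb and 15.05 kb separate the 3 genes of the chromosome 13 cluster, and all 3 are on the plus strand. Prelp (133837335 to 133857971, minus strand) and Fmod (133964992 to 133976015) share chromosome 1 and are 107.02 kb apart, and Bgn is on chromosome X at 72527208 to 72539541. Since Omd and its neighbour Ogn were the members that rose most often in mutant cartilage and Aspn is the third gene of that cluster, the starts of these 3 genes are printed here, 250 bases before to 30 bases after the annotated start, from RefSeq on GRCm38.p6. Capitals mark TATAAA, known from core promoters, and its reverse complement TTTATA. They also mark GGAATG, the core of the site bound by TEAD factors, and its reverse complement CATTCC. TEAD factors are the DNA-binding partners of YAP1 and WWTR1.
Aspn: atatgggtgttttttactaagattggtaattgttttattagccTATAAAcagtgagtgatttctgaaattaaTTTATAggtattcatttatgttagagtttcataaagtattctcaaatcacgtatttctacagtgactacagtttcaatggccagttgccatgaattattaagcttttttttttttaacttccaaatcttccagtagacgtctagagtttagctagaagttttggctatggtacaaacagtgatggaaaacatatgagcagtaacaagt
Omd: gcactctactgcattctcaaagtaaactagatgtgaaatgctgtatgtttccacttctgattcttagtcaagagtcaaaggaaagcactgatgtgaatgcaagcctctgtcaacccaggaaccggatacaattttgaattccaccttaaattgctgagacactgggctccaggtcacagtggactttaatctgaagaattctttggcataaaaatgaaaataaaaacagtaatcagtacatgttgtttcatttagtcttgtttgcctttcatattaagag
Ogn: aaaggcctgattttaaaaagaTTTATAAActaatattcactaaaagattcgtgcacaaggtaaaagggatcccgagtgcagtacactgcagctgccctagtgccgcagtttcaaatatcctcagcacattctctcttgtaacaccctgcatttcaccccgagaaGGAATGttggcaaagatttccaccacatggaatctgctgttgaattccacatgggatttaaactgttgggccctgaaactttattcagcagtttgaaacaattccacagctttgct
The Aspn window (chr13:49544193-49544472, plus strand) held 2 matches of TATAAA and none of GGAATG, and the Omd window (chr13:49582212-49582491, plus strand) held neither run of letters. In the Ogn window (chr13:49607765-49608044, plus strand) there were 2 overlapping matches of TATAAA, one on each strand, and 1 of GGAATG, which began 86 bases before the start. Among 32851 promoter windows of the same length, 13.1% held TATAAA and 13.9% held GGAATG. Entries were found for 8 of the 10 members (not for Dcn and Lum). The matches describe the letters only.

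Libraries held 69636600 to 85899079 UMIs in all. Of 24599 barcodes with at least 1000 UMIs and 800 genes that passed the further filters, 23373 were kept after removal of likely doublets, and 15368 of them fell into one of the 15 groups by a clear lead of one marker list. The share that could be placed was 54.9 and 55.5% in the Lats2iECKO libraries and 74.7 and 74.0% in the controls, and 66 barcodes occurred in more than 1 library. Superficial chondrocytes were placed by Prg4, Slurp1, Angptl7, Cilp and Thbs4. Superficial fibroblasts led in the fibroblast list and then in those same genes. Resting cells were placed by Sfrp5 among others, and pre-hypertrophic cells by Ihh among others. The paper instead counts Slurp1-positive cells as fibroblasts, Sfrp5 as a columnar marker and Ihh as an early hypertrophic one. A group held 20 to 1598 cells per library. The hypertrophic group was uneven, with 266 and 277 mutant cells against 27 and 20 control cells. In the endothelial group, given as a reference only, Lats2 was 91.1 and 97.1 CPM in the mutants and 134 and 125 CPM in the controls. It was lower there but not absent. Values are counts per 1000000 UMIs of a group in a library (CPM), and they compare 1 gene between groups or genotypes. Log2 fold changes are Lats2iECKO (mutant) against control, with the SE of the fit over 2 and 2 libraries. For Lats2 in endothelial cells the log2 fold change was -0.39 ± 0.08, edgeR adjusted p = 6.8e-04. Lats1, which was not targeted, had -0.43 ± 0.12, edgeR adjusted p = 0.0043 in the same cells, where 60.6% of all genes tested were called. In reticular stroma Lats2 had -0.19 ± 0.07, edgeR adjusted p = 0.039. The part of the deletion in the endothelial fall of Lats2 was not tested. Levels are given for the first and the second replicate in that order.

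In the control libraries each member had its own order of cell groups, and the levels are described without a test because the groups were set apart in the same cells. Dcn was highest in superficial fibroblasts, at 53264 ± 1137 CPM (SD, n = 2), followed by fibroblasts with 15316 ± 1386 CPM and superficial chondrocytes with 10360.4 ± 570.4 CPM. It fell to 378 ± 40.5 CPM in columnar chondrocytes and to 41.7 ± 14 CPM in pericyte-like mural cells. Bgn had the flattest profile of the members. Its control mean was between 1373.8 and 1888 CPM in 11 of the groups, columnar chondrocytes, osteoblasts and reticular stroma among them, and none of the neighbours in that order differed beyond the spread of their libraries. Hypertrophic chondrocytes (1138 ± 99 CPM), pericyte-like mural cells (739.7 ± 45.8 CPM), contractile mural cells and endothelial cells lay below that range.

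Fmod, Omd and Epyc had their highest control levels in cartilage groups. Fmod was highest in articular chondrocytes (2277 ± 276 CPM) and next in superficial fibroblasts (1619.6 ± 143 CPM), and was 20.9 ± 4.45 CPM in osteoblasts. Omd was also highest in articular chondrocytes (1030 ± 78.5 CPM) and then in resting chondrocytes (618 ± 55.4 CPM), metaphyseal stroma (502 ± 82.3 CPM) and superficial chondrocytes (373 ± 30.3 CPM). Deeper in the growth plate, Omd came to 94 ± 16.5 CPM in columnar and 66.2 ± 3.95 CPM in pre-hypertrophic cells. Epyc had the opposite place, with 413 ± 23.5 CPM, 388 ± 7.86 CPM and 374 ± 6.5 CPM in cycling, pre-hypertrophic and columnar chondrocytes and 70.7 ± 10.7 CPM in resting chondrocytes. Prelp was highest in superficial fibroblasts (3045 ± 94.1 CPM) and cycling chondrocytes (1885 ± 197 CPM), and lowest in osteoblasts (7.28 ± 1.49 CPM).

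Lum was highest in fibroblasts (1627 ± 278 CPM), and its next levels, in metaphyseal stroma (1303 ± 172 CPM) and osteoblasts (1285 ± 28.6 CPM), overlapped between libraries. Ogn ranged from 323 ± 159.8 CPM in articular chondrocytes and 253 ± 5.37 CPM in reticular stroma to 3.58 ± 3.02 CPM in cycling chondrocytes, and its libraries overlapped between many neighbouring groups. Aspn marked fibroblasts (812 ± 90.3 CPM), pericyte-like mural cells (711 ± 29.2 CPM) and contractile mural cells (571 ± 10.9 CPM), and was at or under 72.4 CPM in every other group. Kera, best known from the cornea, came to 14 ± 6.81 CPM in fibroblasts and was at 0 in both control libraries in 12 of the groups.

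**Figure D1:**
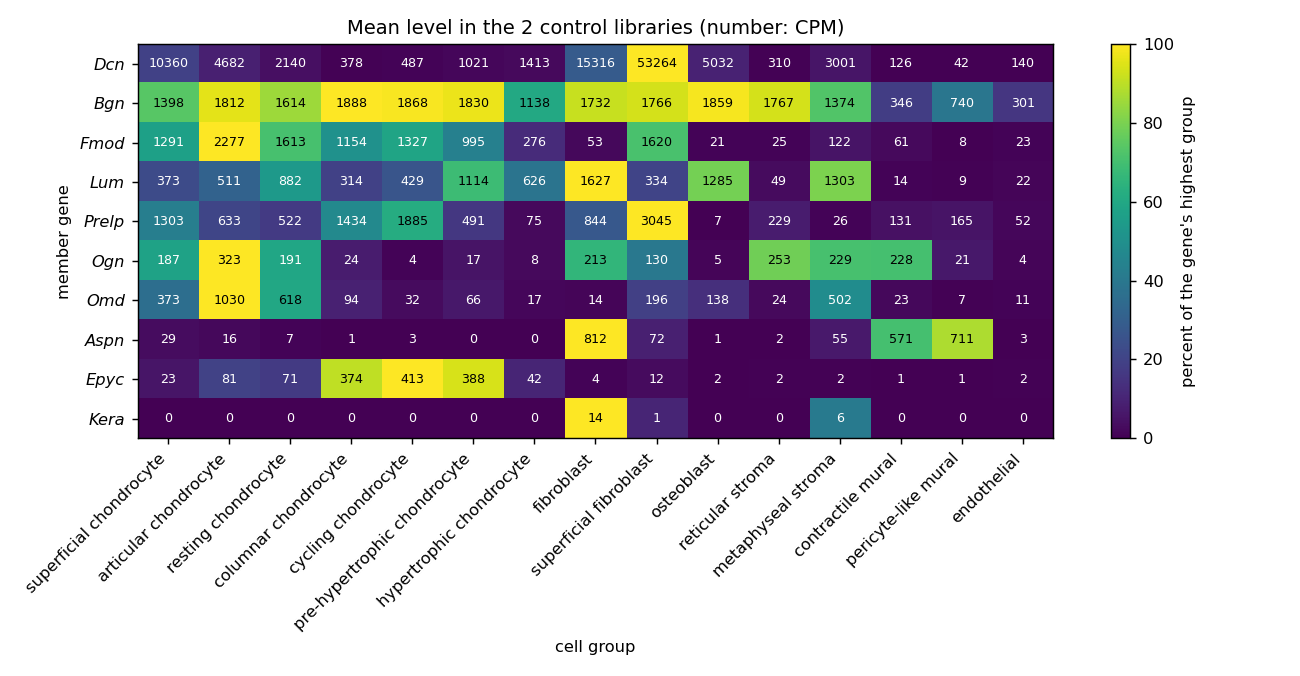
Heat map of the control level of each member (rows) in the 15 cell groups (columns). The number in a cell is the mean CPM of the 2 control libraries and its colour is the percent of that gene's highest group. Dcn peaks in superficial fibroblasts at 53264 CPM, Bgn is nearly level across cartilage, bone and stroma, Epyc is highest in cycling, pre-hypertrophic and columnar chondrocytes, and Kera is near 0 outside fibroblasts and metaphyseal stroma.

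Across the 14 groups other than endothelial cells, 90 of the 140 pairs of a member and a group had enough counts to be tested, and 24 were higher and 21 lower in the Lats2iECKO libraries (edgeR adjusted p of at most 0.05). The count has to be read against all genes, since the share of genes called differed widely between groups. That share was not matched for the level of the members, which were chosen with earlier results of these data known. In the chondrocyte groups it was 1 of 7 members tested against 0.467% of all genes tested in superficial cells, 3 of 7 against 1.51% in articular cells, and 4 of 8 against 9.84% in resting cells. In columnar cells it was 6 of 8 against 26.2%, in cycling cells 1 of 7 against 0.416%, in pre-hypertrophic cells 5 of 8 against 25.8% and in hypertrophic cells 2 of 6 against 27%. In fibroblasts 0 of 6 members were called against 0.904% (edgeR and DESeq2 alike, and 0 at an unadjusted p of at most 0.05), in superficial fibroblasts 2 of 7 against 2.13%, and in osteoblasts 4 of 5 against 11.8%. In reticular stroma 5 of 5 were called against 43.9%, in metaphyseal stroma 6 of 6 against 30.8%, in contractile mural cells 4 of 6 against 14.4%, in pericyte-like mural cells 2 of 4 against 31.4% and in the endothelial reference 2 of 2 against 60.6%. By member, Omd was called in 7 of the 9 groups where it was tested, 6 times higher. Bgn was higher in 5 and lower in 2 of 14 groups, Lum higher in 2 and lower in 5 of 12, Prelp higher in 1 and lower in 4 of 12, Epyc lower in 3 of 5, and Aspn was not called in the 3 groups where it was tested.

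**Figure D2:**
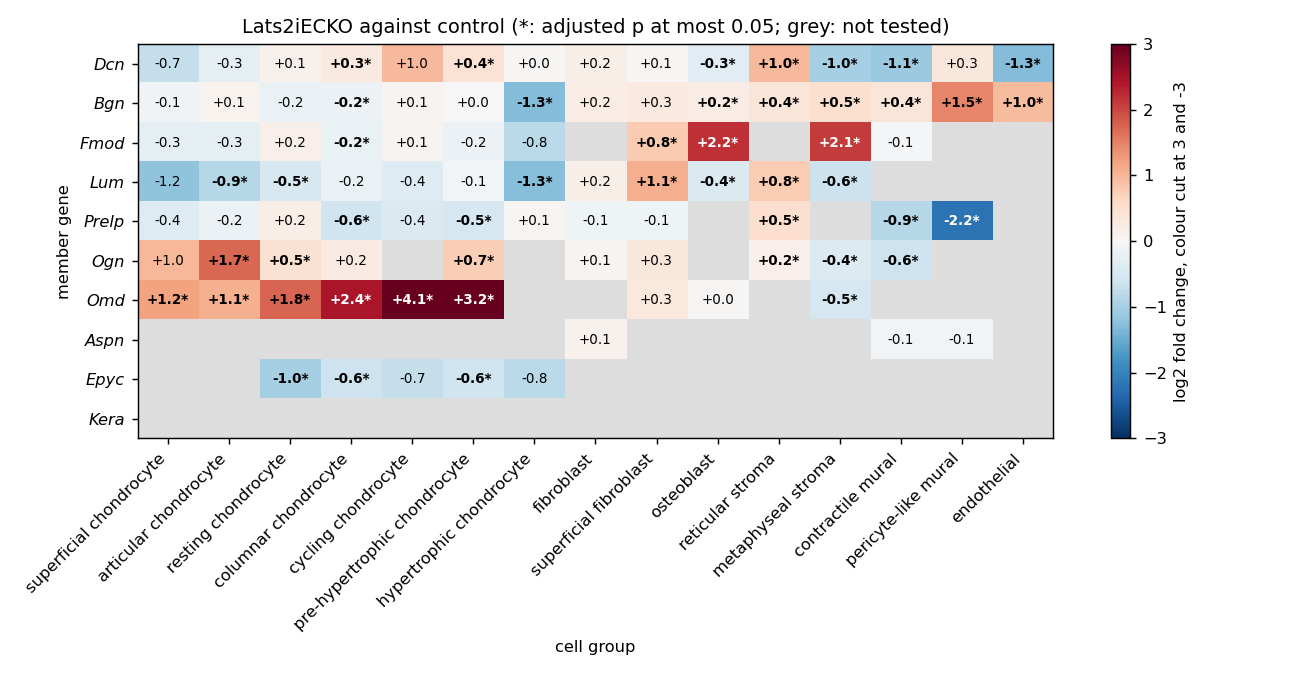
Heat map of the log2 fold change, Lats2iECKO against control, of each member (rows) in each cell group (columns), with the value in each cell, a star for adjusted p of at most 0.05, grey for pairs not tested, and colours cut at 3 and -3. Omd is higher in the 6 chondrocyte groups from superficial to pre-hypertrophic, all 5 members tested in reticular stroma are higher, and metaphyseal stroma holds both directions.

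Omd, which binds hydroxyapatite and is best known from mineralizing tissue, was the member with the widest change in cartilage. In columnar chondrocytes it was 469 and 486 CPM in the mutants and 82.3 and 106 CPM in the controls, a 5.45-fold difference (log2 fold change 2.45 ± 0.11, edgeR adjusted p = 5.5e-08). Pre-hypertrophic chondrocytes had 502 and 674 CPM in the mutants and 69 and 63.4 CPM in the controls, which is 9.41-fold higher (log2 fold change 3.23 ± 0.12, edgeR adjusted p = 1.0e-08). In both groups each mutant library was above each control library with a wide gap. The share of all genes whose libraries separate in this way was not computed, here or for the members below. Omd in cycling chondrocytes was 615 and 419 CPM in the mutants and 17.2 and 46.2 CPM in the controls, and the log2 fold change was 4.15 ± 0.44, edgeR adjusted p = 0.023. These were few reads, 325 and 174 against 15 and 32 UMIs, and the call was lost without mutant replicate 2. The log2 fold change was 3.56 without control replicate 1, 4.97 without control replicate 2, 3.37 with a stricter gate and 2.999 with doublets kept.

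The log2 fold change of Omd was smaller in the zones where its control level was high, although the zones were not tested against each other. Resting chondrocytes held 2133 and 1792 CPM in the mutants and 579 and 657 CPM in the controls. Their log2 fold change was 1.75 ± 0.12, edgeR adjusted p = 2.6e-08. Articular chondrocytes held 2124 and 2077 CPM in the mutants and 975 and 1086 CPM in the controls (1.06 ± 0.17, edgeR adjusted p = 0.0061). In superficial chondrocytes Omd was 903 and 766 CPM in the mutants and 394 and 351 CPM in the controls (1.20 ± 0.16, edgeR adjusted p = 0.0022). The mutant libraries lay above the control libraries in all 3 groups. The articular call was lost when either mutant library was left out, as was the superficial call, whose log2 fold change was 0.12 with a stricter gate and 0.72 with a wider barcode filter. With cells named by clusters Omd kept its call in columnar cells at 1.42 and in articular cells at 0.50. In resting cells it was lost only when genes with low counts were kept in the test. In hypertrophic chondrocytes Omd was below the share of cells needed for the main test. There its level was 61.8 and 103 against 0 and 34.6 CPM, and a test without that minimum gave log2 fold change 2.47, edgeR adjusted p = 0.017. With no filter on low counts at all, the value was 2.62, edgeR adjusted p = 0.051, which did not pass.

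Thinned shares, here and below, were taken over cells with at least 5000 UMIs, each thinned to 5000 UMIs. Cells with fewer UMIs were left out of them. The thinned share of cells with at least 1 Omd UMI was 59.3 and 55.3% against 24.3 and 24.4% in columnar chondrocytes (mutant against control). It was 52.1 and 50.5% against 19 and 19.6% in pre-hypertrophic ones. Unthinned shares were 74.1 and 68.8% against 39.3 and 44.1% and 73.5 and 70.1% against 38.1 and 42.5%. Endothelial cells, which should lack Omd, gave 2.06 and 3.16% against 1.31 and 2.15% after thinning. Free RNA was estimated with its profile from near-empty droplets and its amount from hemoglobin transcripts. It would give at most 3.8% of the Omd level in columnar cells and at most 3.9% in pre-hypertrophic cells. Markers of other cells moved with the columnar result. Col10a1, the collagen of hypertrophic cells, was 339 and 234 against 23.3 and 16.2 CPM and the erythroid marker list summed to 395 and 535 against 151 and 261 CPM. The reticular stroma list summed to 70 and 60.8 against 169 and 153 CPM, with 2 of 2 tested lower. The mural list summed to 194 and 215 against 350 and 342 CPM, with 1 of 1 lower. The fibroblast list summed to 1916 and 2060 against 1266 and 1311 CPM, with 1 higher and 1 lower of 2. Of the chondrocyte markers 1 was higher and 3 lower of 10, and of the osteoblast markers 1 higher and 2 lower of 5. The part of these markers in the columnar Omd result was not tested. In pre-hypertrophic cells 7 of the 10 chondrocyte markers were called lower and 1 higher. The osteoblast list summed to 18694 and 18745 against 13539 and 12101 CPM there, with 3 higher and 2 lower of 6 tested, and the erythroid list to 445 and 491 against 153 and 162 CPM. Their part in the Omd result was not tested. Omd went the other way in metaphyseal stroma, with 297 and 371 CPM in the mutants and 444 and 561 CPM in the controls and log2 fold change -0.51 ± 0.11, edgeR adjusted p = 0.0023. That call was lost without control replicate 2 (-0.33) and with doublets kept (-0.25), while clusters gave -1.75.

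**Figure D3:**
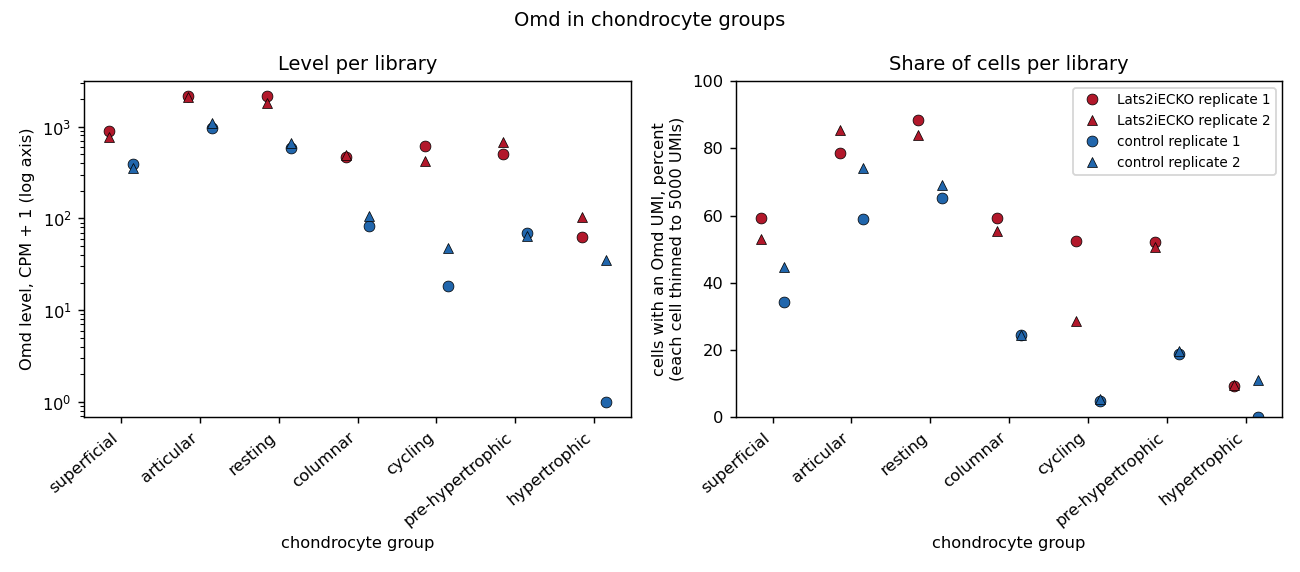
Left, Omd level in each library as CPM + 1 (log axis) over the 7 chondrocyte groups. Right, percent of cells with an Omd UMI in each library, among cells with at least 5000 UMIs, each thinned to 5000 UMIs. Red points are mutants, blue points controls, and circles and triangles replicates 1 and 2. Mutant levels lie above control levels in each group, and the mutant shares do so in each group but the hypertrophic one.

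Ogn, the next gene to Omd on chromosome 13, rose in 3 of the 5 chondrocyte groups in which it was tested. In articular chondrocytes it was 938 and 1097 CPM in the mutants and 436 and 210 CPM in the controls (log2 fold change 1.72 ± 0.26, edgeR adjusted p = 0.0037), a call that stood under each alternative that gave a value. The control libraries differed widely between themselves and both stayed below the mutants, and without control replicate 1 the Ogn value was 2.32. Resting chondrocytes held 270.2 and 226 CPM in the mutants and 191 and 191 CPM in the controls (0.46 ± 0.12, edgeR adjusted p = 0.02). Pre-hypertrophic chondrocytes held 31.2 and 21.9 CPM in the mutants and 18.4 and 15.5 CPM in the controls (0.74 ± 0.19, edgeR adjusted p = 0.012). Markers of other cells moved in the resting, articular and superficial groups, and their part in the changes of Omd, Ogn, Epyc and Lum there was not tested. Col10a1 had a log2 fold change of 2.13, edgeR adjusted p = 3.5e-06 in resting and 3.82, edgeR adjusted p = 0.0027 in articular cells. Of the osteoblast markers, 4 of 5 tested were lower and 1 higher in resting cells and 2 of 5 were lower in articular cells. Erythroid markers were higher for 4 of 4 tested in resting and superficial and 1 of 4 in articular cells. Both of the smaller Ogn calls were lost under several settings, and with cells named by clusters the resting value was -0.17. Aspn, the third gene of the cluster, was seen in few chondrocytes. A test without the minimum share of cells gave Aspn a log2 fold change of 2.51, edgeR adjusted p = 0.0011 in resting cells, where it was 40 and 33.8 CPM in the mutants and 9.95 and 3.87 CPM in the controls. With no filter on low counts at all, Aspn had 2.52, edgeR adjusted p = 0.46 and was not called.

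Epyc, the growth plate member, was lower in mutants in 3 of the 5 groups tested. In columnar chondrocytes it was 212 and 242 CPM in the mutants and 378 and 369 CPM in the controls, with log2 fold change -0.61 ± 0.08, edgeR adjusted p = 1.5e-04. Pre-hypertrophic cells held 262 and 224 CPM in the mutants and 383 and 394 CPM in the controls (-0.59 ± 0.08, edgeR adjusted p = 2.4e-04). Resting cells had 31.3 and 35.4 CPM in the mutants and 78.2 and 63.1 CPM in the controls (-0.99 ± 0.17, edgeR adjusted p = 0.0011). No mutant library reached a control library in these groups. With cells named by clusters in place of the marker gate, the resting value turned to 1.08, the pre-hypertrophic call was lost and the columnar value, still called, was -0.31. In cycling cells, where the control level was highest, Epyc was 252 and 217 against 430.1 and 397 CPM and its log2 fold change of -0.73 ± 0.23 did not pass the test. The shifts of other markers given for columnar and pre-hypertrophic cells, 7 of 10 chondrocyte markers lower in the latter, stand beside the Epyc and Prelp values too, and their part was not tested.

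Prelp was also lower in columnar and pre-hypertrophic chondrocytes. Columnar chondrocytes held 889.9 and 865 CPM in the mutants and 1529 and 1339.7 CPM in the controls (-0.60 ± 0.07, edgeR adjusted p = 3.9e-05). In pre-hypertrophic chondrocytes Prelp was 333 and 323 CPM in the mutants and 471 and 511 CPM in the controls (-0.50 ± 0.07, edgeR adjusted p = 2.5e-04). In pre-hypertrophic cells the clusters gave 0.27 instead, and in columnar cells -0.25, still called. Cycling cells had 1357 and 1262 against 1746 and 2025 CPM, with a log2 fold change of -0.43 ± 0.18 that was not called.

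Lum and Bgn fell most in hypertrophic chondrocytes. Lum was 240.4 and 259.7 CPM in the mutants and 660.5 and 592 CPM in the controls there (log2 fold change -1.27 ± 0.14, edgeR adjusted p = 4.3e-05). Bgn was 376 and 502 CPM in the mutants and 1068 and 1208 CPM in the controls (-1.31 ± 0.16, edgeR adjusted p = 7.2e-05). For both genes each control library was above each mutant library. Clusters gave no value for this zone, because a library held fewer than 10 of the cells, although they named 1571 cells hypertrophic. The marker gate placed 266 and 277 mutant cells here against 27 and 20 control cells. Ptgs2, a marker of this gate, had a log2 fold change of 1.19, edgeR adjusted p = 0.022. Whether the mutant and control cells compared were alike was not tested. The osteoblast markers fell in the same cells, from 14133 and 10784 CPM in controls to 2953 and 4054 CPM in mutants for the list of 10, with 5 of the 6 tested markers called lower, and the part of osteoblast RNA in the 2 falls was not tested. Col10a1, which defines the zone, was 29981 and 29962 against 38645 and 38039.8 CPM, 4 of 4 erythroid markers were higher, and the median cell held 10018 and 9947 UMIs in mutants against 15080 and 13633 in controls. Lum was also lower in articular cells, with 238 and 309 CPM in the mutants and 534 and 488 CPM in the controls (-0.86 ± 0.19, edgeR adjusted p = 0.039). In resting cells it was 557 and 628 CPM in the mutants and 816 and 948 CPM in the controls (-0.49 ± 0.11, edgeR adjusted p = 0.01). Both calls were lost under several settings.

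Dcn and Fmod were called in few cartilage groups, with small fold changes where called. Dcn was 423 and 433 CPM in the mutants and 349 and 406 CPM in the controls in columnar cells (0.28 ± 0.08, edgeR adjusted p = 0.027). In pre-hypertrophic cells it was 1237 and 1347 CPM in the mutants and 1046 and 996 CPM in the controls (0.42 ± 0.06, edgeR adjusted p = 2.4e-04). In superficial chondrocytes, the cartilage group with the highest Dcn level, it was 6626 and 5676 against 10764 and 9957 CPM, a log2 fold change of -0.72 ± 0.19 that did not pass the test. Cycling cells held 1094 and 706 against 666 and 307 CPM of Dcn (0.98 ± 0.37, not called), and the mutant libraries were above the controls. With no filter on low counts it was called (0.87, edgeR adjusted p = 0.013). Fmod was 982 and 880 CPM in the mutants and 1159.6 and 1148 CPM in the controls in columnar cells (-0.20 ± 0.06, edgeR adjusted p = 0.035). In hypertrophic cells Fmod was 89.8 and 209 against 202 and 349 CPM (-0.80 ± 0.36, not called), and the libraries overlapped. Bgn was 1545 and 1549 CPM in the mutants and 1887 and 1888 CPM in the controls in columnar cells (-0.18 ± 0.05, edgeR adjusted p = 0.023). The Dcn, Fmod and Bgn calls in columnar cells were lost under more than 1 setting, and the Dcn call in pre-hypertrophic cells was lost with cells named by clusters.

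**Figure D4:**
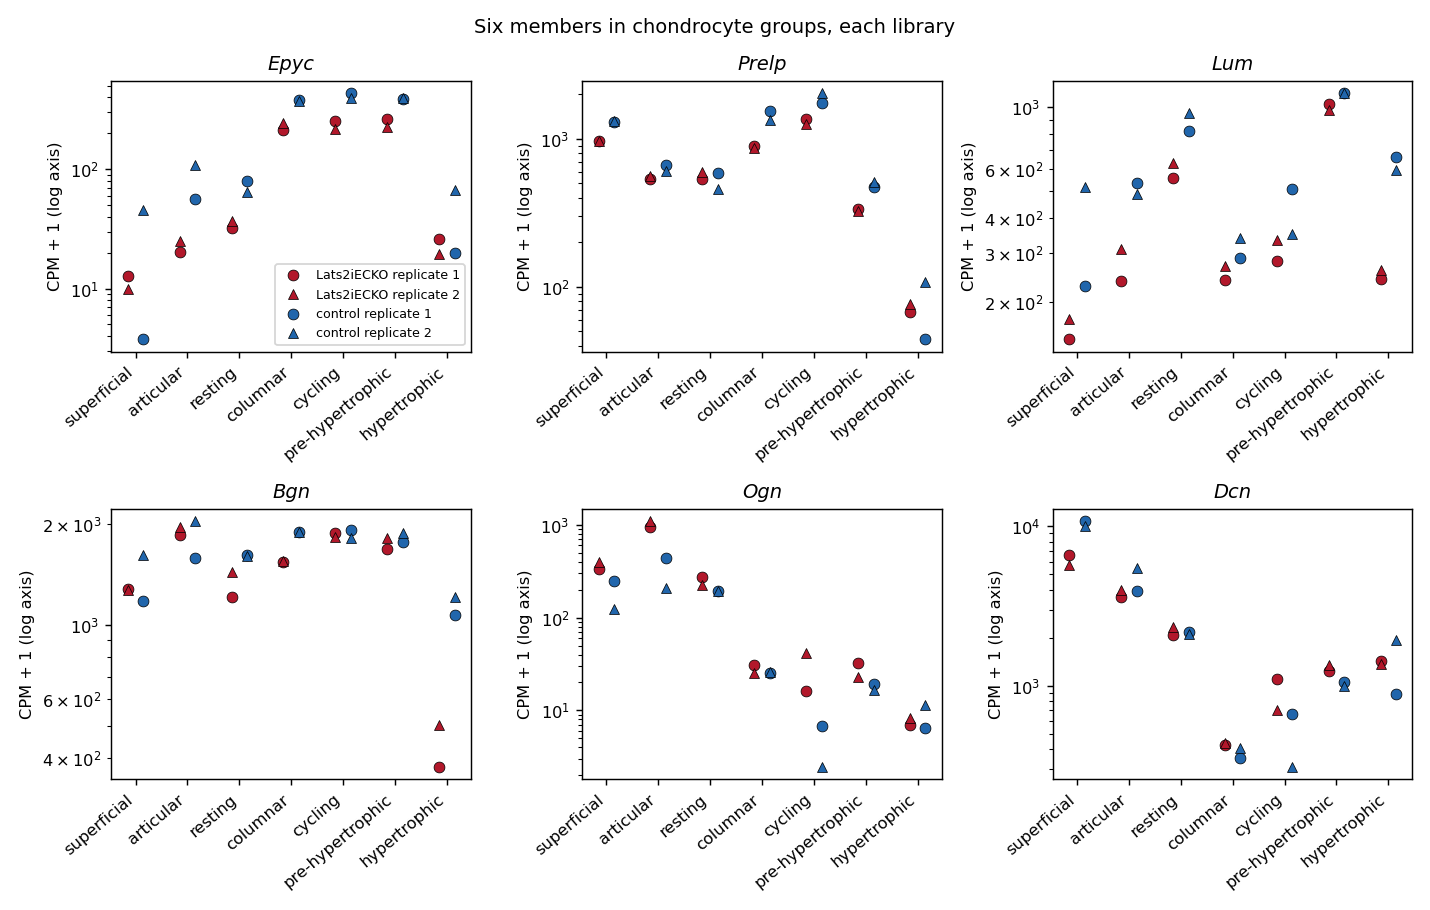
Levels of Epyc, Prelp, Lum, Bgn, Ogn and Dcn in each library as CPM + 1 (log axes) over the 7 chondrocyte groups, with red points for mutants and blue points for controls, and circles and triangles for replicates 1 and 2. Epyc and Prelp are lower in mutant columnar and pre-hypertrophic cells, Ogn is higher in mutant articular cells, and Lum and Bgn are lower in mutant hypertrophic cells.

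Fibroblasts, the cells with most Dcn, changed in few members. In the controls the fibroblast marker list summed to 3756 and 3932 CPM in superficial fibroblasts and to 8038 and 8206 CPM in fibroblasts. In superficial fibroblasts Lum was 799.6 and 594 CPM in the mutants and 365 and 304 CPM in the controls (log2 fold change 1.10 ± 0.13, edgeR adjusted p = 3.1e-05). Fmod was 3137 and 2288 CPM in the mutants and 1720.4 and 1519 CPM in the controls (0.78 ± 0.12, edgeR adjusted p = 6.0e-04). Mutant libraries lay above control libraries for both. The thinned share of superficial fibroblasts with a Lum UMI was 46.5 and 51.1% against 42.2 and 48.9%, which differs less than the level. Both calls were lost only when genes with low counts were kept in the test. Col10a1 had a log2 fold change of 1.83, edgeR adjusted p = 4.3e-05 in superficial fibroblasts. The metaphyseal stroma list summed to 564 and 711 against 456 and 422 CPM, and 4 of 4 erythroid markers tested were called higher. Of the osteoblast markers 1 was higher and 2 lower of 3 tested, and the chondrocyte list summed to 1878 and 2685 against 1796 and 1959.8 CPM, with 1 of 6 higher. Their part in the Lum and Fmod results was not tested. Dcn was 56098 and 51359.8 against 52459.6 and 54068 CPM in these cells and 19134 and 14408 against 14336 and 16296 CPM in the fibroblasts, with log2 fold changes of 0.05 ± 0.09 and 0.18 ± 0.16 (SE) that were not called. Aspn, at its highest in fibroblasts, was 855 and 868 against 748 and 876 CPM there (0.13 ± 0.18, not called). Kera in superficial fibroblasts was 18 and 12 against 4 and 0 UMIs, too few for the main test.

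Osteoblasts changed in 4 of the 5 members tested. Fmod, which is low in control osteoblasts, was 139.6 and 63.2 CPM in the mutants and 17.7 and 24 CPM in the controls, a 4.59-fold difference (log2 fold change 2.20 ± 0.26, edgeR adjusted p = 1.1e-04). Without mutant replicate 1 the log2 fold change was 1.56, still called. That library was also the higher mutant one for Omd, Prelp (33.3 and 7.79 against 6.23 and 8.34 CPM) and Aspn (6.44 and 0.41 against 0.712 and 0.426 CPM) in osteoblasts. Lum was lower, with 904 and 1048 CPM in the mutants and 1305 and 1264 CPM in the controls (-0.42 ± 0.07, edgeR adjusted p = 0.0019). Dcn was 4349 and 3957 CPM in the mutants and 5038 and 5026 CPM in the controls (-0.31 ± 0.07, edgeR adjusted p = 0.011). Bgn was 2137 and 2284 CPM in the mutants and 1833 and 1884 CPM in the controls (0.22 ± 0.06, edgeR adjusted p = 0.037). The Dcn and Bgn calls were lost when a control library was left out or under other settings. The libraries of the genotypes did not overlap for these 4 called members, but the share of all genes without overlap was not computed. Of the mature osteoblast markers, 7 of 10 were called lower and 2 higher, and Bglap (osteocalcin) was 74107 and 76576 against 101340 and 99938 CPM. The chondrocyte marker list summed to 3125 and 3256 against 3404 and 3175 CPM, and after the estimated free RNA was removed Fmod had a log2 fold change of 2.47, edgeR adjusted p = 8.1e-04. The thinned share of osteoblasts with an Fmod UMI was 19.6 and 17.8% against 6.3 and 3.66% and that of endothelial cells 3.24 and 3.65% against 3.93 and 4.77%. Of the chondrocyte markers, 2 of 5 tested were called higher and 1 lower. The metaphyseal stroma list summed to 712 and 575 against 475 and 437 CPM, with 2 of 4 higher, and the erythroid list to 494 and 550 against 148 and 151 CPM, with 4 of 4 higher. Their part in these results was not tested. Omd, named for bone, was 217 and 82 against 142 and 134 CPM in osteoblasts (0.05 ± 0.26, not called).

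Reticular stroma, the Lepr- and Cxcl12-positive cells of the marrow, was the group in which all members tested rose. Dcn was 473 and 691 CPM in the mutants and 323 and 297 CPM in the controls (log2 fold change 0.96 ± 0.09, edgeR adjusted p = 1.7e-08). Lum was 80 and 82 CPM in the mutants and 46.2 and 52.4 CPM in the controls (0.77 ± 0.09, edgeR adjusted p = 2.2e-07). Both are collagen-binding members that are low in these cells when set beside fibroblasts. Prelp was 299 and 331 CPM in the mutants and 234 and 224 CPM in the controls (0.51 ± 0.06, edgeR adjusted p = 2.5e-07). Bgn was 2109.5 and 2249 CPM in the mutants and 1756 and 1777 CPM in the controls (0.35 ± 0.05, edgeR adjusted p = 1.0e-06). Ogn had the smallest rise, with 264 and 279 CPM in the mutants and 257 and 249 CPM in the controls (0.15 ± 0.06, edgeR adjusted p = 0.032). Both mutant libraries exceeded both controls for each of these 5 called genes, and how many of all genes do so was not computed. The Ogn call was lost under several settings. Free RNA alone would give 13.0 and 9.1% of the Dcn level in the mutants and 41.45 and 46.6% in the controls. For Lum it would give 13.9 and 13.5% against 72.1 and 70.4%. With it subtracted the log2 fold changes were 1.61, edgeR adjusted p = 7.2e-08 for Dcn and 2.33, edgeR adjusted p = 3.7e-10 for Lum. The subtraction took more from the controls, which by itself raises these values. The estimate can be too high, since for Epyc it was 294 and 174% of the control level in this group. With doublets kept, the log2 fold changes were 0.35 for Dcn and 0.44 for Lum, both still called. The thinned share of cells with a Lum UMI was 18.6 and 20.1% against 14.4 and 15.7% in reticular stroma and 2.35 and 2.92% against 6.33 and 5.97% in endothelial cells. Markers of other cells moved in this group too. The erythroid list summed to 1017 and 989 against 464 and 532 CPM, with 4 of 4 tested called higher. Of the osteoblast markers 4 of 5 were lower and 1 higher, and of the metaphyseal stroma markers 3 of 3 were lower. Col10a1 had a log2 fold change of 1.54, edgeR adjusted p = 3.2e-10. Their part in the rise of the members was not tested.

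In metaphyseal stroma, the Wif1- and Postn-positive cells beside the growth plate, members moved both ways. Dcn was 1312 and 1526 CPM in the mutants and 2698 and 3304 CPM in the controls (log2 fold change -1.002 ± 0.11, edgeR adjusted p = 9.2e-07). Lum was 703 and 885 CPM in the mutants and 1182 and 1424 CPM in the controls (-0.63 ± 0.11, edgeR adjusted p = 2.2e-04). Ogn was 140.2 and 186 CPM in the mutants and 234 and 223 CPM in the controls (-0.40 ± 0.11, edgeR adjusted p = 0.0079), and Omd fell as given above. In the other direction, Fmod rose 4.31-fold, with 356 and 634 CPM in the mutants and 97.8 and 146 CPM in the controls (2.11 ± 0.19, edgeR adjusted p = 1.5e-07). Bgn was 1646 and 1983 CPM in the mutants and 1353 and 1395 CPM in the controls (0.48 ± 0.09, edgeR adjusted p = 7.1e-04). The libraries of the genotypes did not overlap for these 6 called members, and the share of all genes without overlap was not computed. The thinned share of cells with an Fmod UMI was 45.2 and 46.3% against 14.6 and 18.9%, and with a Dcn UMI 57.3 and 65.8% against 83.3 and 85.7%. Aspn and Prelp were in too few of these cells for the main test. Without the minimum share, Aspn gave a log2 fold change of 2.04, edgeR adjusted p = 1.7e-05, from 284 and 156 against 50.7 and 59.8 CPM. Prelp gave 1.24, edgeR adjusted p = 0.0037, from 39.3 and 77.6 against 21.2 and 31.6 CPM. With no filter on low counts at all neither was called, with 1.98, edgeR adjusted p = 0.063 for Aspn and 1.18, edgeR adjusted p = 0.23 for Prelp.

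The make-up of the metaphyseal group moved as well. Its own marker list was at 7028 and 7269 against 13159 and 12604 CPM, with 7 of 8 markers called lower and Postn called higher, 4 of 4 erythroid markers were higher, and the osteoblast list was at 4365 and 5305 against 8158 and 7719.7 CPM. The reticular stroma list was at 2072 and 2598 against 4469 and 4204 CPM, with 2 higher and 4 lower of 7 tested. Chondrocyte markers summed to 707 and 1288 against 438 and 426 CPM, Col2a1 to 416 and 796 against 179 and 182 CPM and Col10a1 to 693 and 695 against 25.2 and 21.7 CPM. The part of these shifts in the member changes was not tested. The calls of Bgn, Fmod, Lum, Ogn and Omd were lost when genes with low counts were kept in the test. The Ogn call was also lost with DESeq2 and without mutant replicate 1 (-0.22), and the Dcn call stood under every alternative. With cells named by clusters, Dcn was at -2.47, Lum at -2.41, Ogn at -1.42 and Fmod at 1.12.

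**Figure D5:**
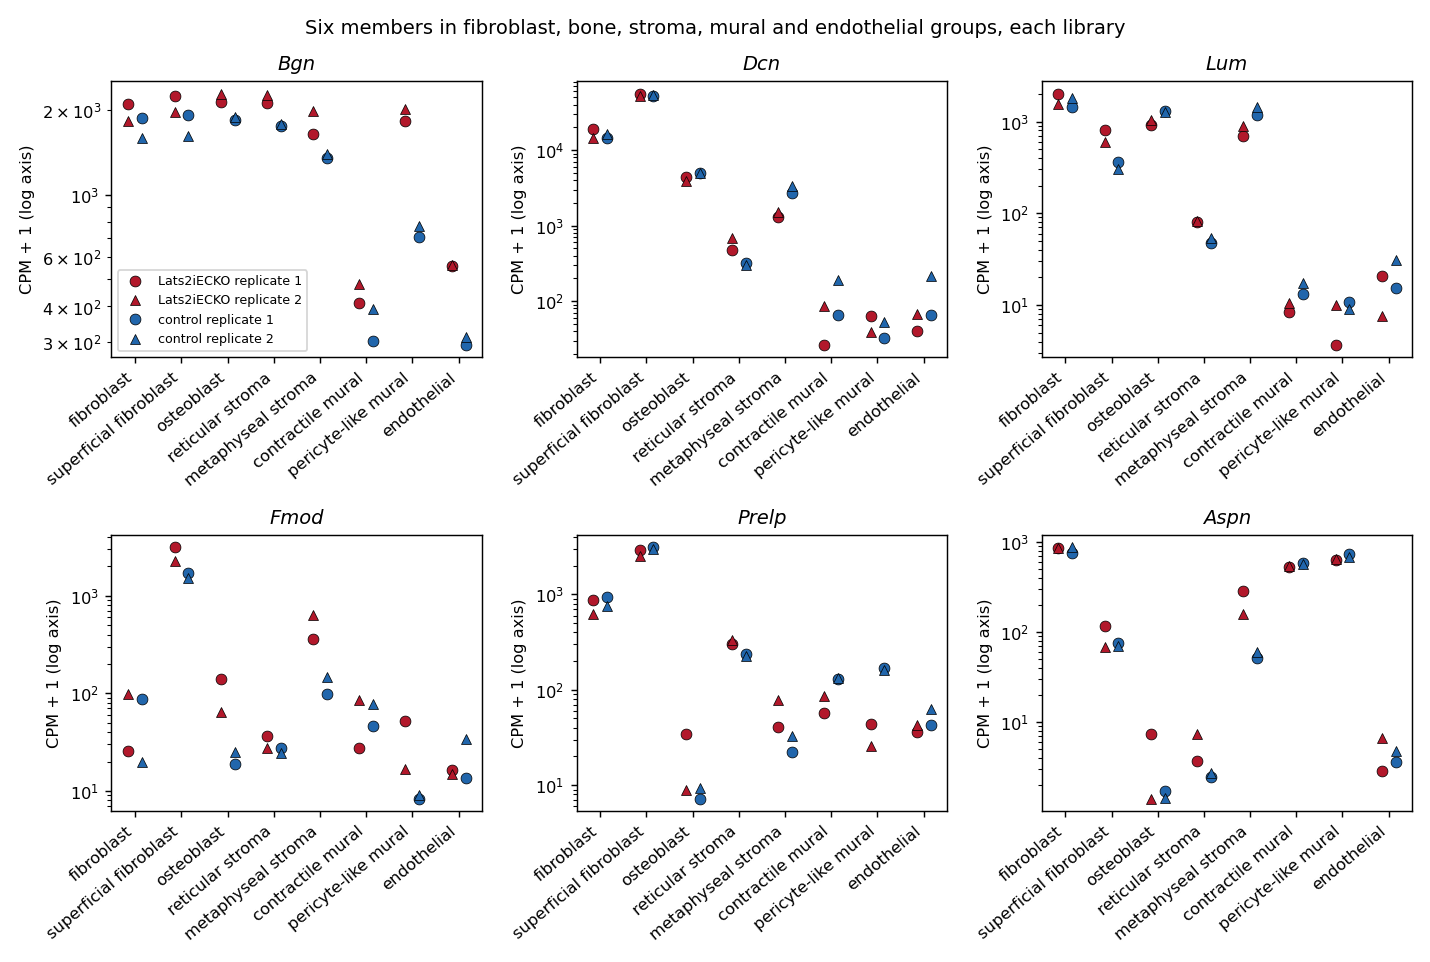
Levels of Bgn, Dcn, Lum, Fmod, Prelp and Aspn in each library as CPM + 1 (log axes) over the fibroblast, osteoblast, stroma, mural and endothelial groups, with red points for mutants and blue points for controls, and circles and triangles for replicates 1 and 2. Dcn and Lum are higher in mutant reticular stroma and lower in mutant metaphyseal stroma, Fmod is higher in mutant osteoblasts, and Bgn is higher and Prelp lower in mutant pericyte-like mural cells.

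Pericyte-like mural cells showed a rise of Bgn and a fall of Prelp. Bgn was 1828 and 2009 CPM in the mutants and 707 and 772 CPM in the controls, a 2.76-fold rise (log2 fold change 1.47 ± 0.10, edgeR adjusted p = 1.6e-10). Prelp was 42.8 and 24.6 CPM in the mutants and 169 and 160.4 CPM in the controls (-2.22 ± 0.23, edgeR adjusted p = 1.1e-07). Neither gene overlapped between the genotypes. The thinned share of cells with a Prelp UMI was 11.6 and 6.38% against 42.5 and 55.6%, and that of endothelial cells was 13.8 and 15.1% against 16.8 and 20.8%, so that the mutant share lay at or under the level of that reference. The group differed in its own markers. The mural list summed to 10219 and 11063 against 24467 and 24750.4 CPM, Rgs5 was 6858 and 7766 against 18432 and 18202 CPM and Notch3 909 and 975 against 2075 and 2218 CPM, while Kcnj8 was 258 and 270.1 against 159 and 190.3 CPM. The leukocyte list summed to 260.3 and 251 against 26.9 and 40.8 CPM, but only 1 of its 10 markers was tested, which was higher, and Ptprc, Cd79a and Itgb2 were at 0 in every library. The reticular stroma list was at 2707 and 3284 against 1897 and 1709.8 CPM, with 2 higher and 3 lower of 5 tested. Col10a1 had a log2 fold change of 3.02, edgeR adjusted p = 2.7e-11. Of the erythroid markers 4 of 4 tested were higher, and of the osteoblast markers 3 of 3 were lower. Their part in the Bgn and Prelp results was not tested. With doublets kept the Prelp value was -1.45 and still called. Aspn, which is high in pericyte-like cells, was 627 and 642 against 732 and 690.5 CPM (-0.08 ± 0.11, not called).

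In contractile mural cells 3 members fell and 1 rose. Prelp was 56.7 and 85 CPM in the mutants and 129 and 133 CPM in the controls (-0.85 ± 0.19, edgeR adjusted p = 3.8e-04). Ogn was 139 and 156 CPM in the mutants and 259 and 198 CPM in the controls (-0.62 ± 0.14, edgeR adjusted p = 8.4e-04). Bgn was the one that rose, with 410.1 and 480.5 CPM in the mutants and 301 and 392 CPM in the controls (0.37 ± 0.12, edgeR adjusted p = 0.018). These libraries did not overlap. Dcn was 25.4 and 85 CPM in the mutants and 65.5 and 187 CPM in the controls and was called at a log2 fold change of -1.12 ± 0.26, edgeR adjusted p = 0.001 although its libraries overlap. The Dcn value was -2.31 without mutant replicate 2 and -0.16 without control replicate 2, neither called, and -2.02 with a stricter gate and -2.63 with doublets kept. Free RNA alone would give up to 133% of the Dcn level there. DESeq2 called 0 of the 4, all 4 were lost under more than 1 setting, and the Bgn value turned to -0.12 with a stricter gate. The osteoblast list summed to 130.2 and 169.6 against 464 and 592 CPM in contractile mural cells, with 2 of 2 tested lower. The erythroid list summed to 560 and 684 against 183 and 251 CPM, with 4 of 4 higher, and Col10a1 had a log2 fold change of 1.47, edgeR adjusted p = 3.0e-06. Their part in these results was not tested. In the endothelial reference Bgn was 558 and 561 CPM in the mutants and 291 and 311 CPM in the controls (0.96 ± 0.06, edgeR adjusted p = 2.4e-10). Dcn there was 39.3 and 67.3 CPM in the mutants and 64.4 and 216 CPM in the controls, with overlapping libraries (-1.31 ± 0.35, edgeR adjusted p = 0.0037) and free RNA that would give up to 156% of the level. The endothelial Dcn call was lost with DESeq2, without control replicate 2 (-0.18), with free RNA subtracted (-2.19) and with doublets kept (-0.85), and the value was -1.93 without control replicate 1 and -0.44 with clusters. Of the endothelial group's other markers, 4 of 4 erythroid ones were higher and 3 of 3 osteoblast ones lower, and their part was not tested.

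Whether an effect in one group differed from the mean effect of the other 13 groups was tested in a single fit, in which 9 members could be followed. In metaphyseal stroma 5 of 9 members differed, against 4.98% of all genes in that comparison, in hypertrophic chondrocytes 3 against 11.9%, in osteoblasts 3 against 3.19% and in pericyte-like mural cells 3 against 8.33%. 1 member of 9 differed in each of articular (0.53%), columnar (3.05%), cycling (2.57%) and pre-hypertrophic chondrocytes (2.14%), superficial fibroblasts (0.908%), reticular stroma (2.25%) and contractile mural cells (1.41%). None passed in superficial chondrocytes (1.27%), resting chondrocytes (0.539%) and fibroblasts (0.284%) by edgeR, where 4, 2 and 3 had an unadjusted p of at most 0.05.

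The Omd effect in pre-hypertrophic chondrocytes exceeded the mean of the other groups by 2.25 ± 0.44 (SE), edgeR adjusted p = 0.002 on the log2 scale, and in columnar chondrocytes by 1.42 ± 0.39 (SE), edgeR adjusted p = 0.029. In metaphyseal stroma Omd lay below that mean, with a difference of -1.83 ± 0.34 (SE), edgeR adjusted p = 3.9e-04. Dcn in metaphyseal stroma differed by -1.14 ± 0.31 (SE), edgeR adjusted p = 0.02, and Lum in reticular stroma by 1.14 ± 0.25 (SE), edgeR adjusted p = 0.0059. Fmod stood apart in osteoblasts by 1.88 ± 0.42 (SE), edgeR adjusted p = 0.0073 and in metaphyseal stroma by 1.71 ± 0.39 (SE), edgeR adjusted p = 0.0043. The rise of Bgn (1.51 ± 0.16 (SE), edgeR adjusted p = 1.4e-08) and the fall of Prelp (-2.17 ± 0.38 (SE), edgeR adjusted p = 9.9e-05) stood apart in pericyte-like mural cells.

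Other genes of the family and relatives, all outside the 10 members followed here, were looked at as a list of 7 (Chad, Chadl, Ecm2, Podn, Podnl1, Optc and Nyx). Ecm2, a matrix protein of soft connective tissue, was higher in resting (0.70, edgeR adjusted p = 0.0059), cycling (2.37, edgeR adjusted p = 0.044) and pre-hypertrophic chondrocytes (1.06, edgeR adjusted p = 4.0e-04) and lower in contractile mural cells (-0.93, edgeR adjusted p = 0.0032). In pre-hypertrophic cells its libraries held 26.8 and 29.3 against 15.8 and 12.8 CPM. Chad (chondroadherin, a collagen- and integrin-binding cartilage protein) was higher in columnar chondrocytes, with 5169.7 and 5948 against 4163 and 4312 CPM (0.50, edgeR adjusted p = 1.5e-04), and in osteoblasts, with 222 and 62.8 against 56.6 and 44.5 CPM (1.41, edgeR adjusted p = 0.017), where mutant replicate 1 alone was far above the other libraries. It was lower in hypertrophic chondrocytes (-1.48, edgeR adjusted p = 8.5e-06) and pericyte-like mural cells (-0.92, edgeR adjusted p = 0.028). In fibroblasts Chad was 35.6 and 43.8 against 559 and 58.9 CPM (-2.92, edgeR adjusted p = 0.018), with control replicate 1 alone far above the other libraries. In contractile mural and endothelial cells its libraries overlapped. Chadl was lower in columnar (-0.27, edgeR adjusted p = 0.011) and hypertrophic chondrocytes (-1.81, edgeR adjusted p = 8.5e-05). Podn was higher in reticular stroma (0.62, edgeR adjusted p = 3.0e-06) and Podnl1 in metaphyseal stroma (0.48, edgeR adjusted p = 0.0015). Optc in cycling chondrocytes did not pass the test (2.17, edgeR adjusted p = 0.22), and Nyx, at 8 to 16.2 UMIs per library over all groups, was not tested.

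Collagens that the core proteins bind were read beside the share of all genes called, which was 26.2% in columnar, 25.8% in pre-hypertrophic and 27% in hypertrophic chondrocytes, 30.8% in metaphyseal stroma and 31.4% in pericyte-like mural cells. Of the 15 genes of the collagen and fibril partner list, 6 were higher and 4 lower of 12 tested in columnar chondrocytes (median log2 fold change 0.20 against 0.00 for all genes tested), and 8 were higher and 4 lower of 12 in pre-hypertrophic chondrocytes (0.31 against -0.01). Col3a1, the collagen of loose connective tissue, had a log2 fold change of 3.94, edgeR adjusted p = 3.8e-08 in pre-hypertrophic cells, from 259 and 319.6 against 26.4 and 13.9 CPM, and 1.48, edgeR adjusted p = 3.5e-06 in resting cells. Col1a1 was lower in columnar (-1.26, edgeR adjusted p = 0.0018) and hypertrophic cells (-3.65, edgeR adjusted p = 2.7e-04). Its hypertrophic levels were 53.1 and 71.7 against 1378 and 225 CPM, with control replicate 1 far above control replicate 2, and 7 of 11 listed genes were lower in the hypertrophic group (median -0.90 against -0.01). In metaphyseal stroma 8 of 13 were higher and 1 lower (median 0.44 against -0.01), with Fbn1, the fibrillin of microfibrils, at 0.90, edgeR adjusted p = 1.1e-07. Pericyte-like mural cells had 6 of 12 higher and 0 lower (0.42 against 0.01), led by Col12a1, a fibril-associated collagen, at 3.90, edgeR adjusted p = 2.7e-11. In osteoblasts Comp and Col12a1 were higher (1.69, edgeR adjusted p = 0.0068, and 1.61, edgeR adjusted p = 4.6e-04), with 516 and 143 against 94.8 and 101 CPM for Comp and 111 and 52.5 against 24.4 and 26.5 CPM for Col12a1. Mutant replicate 1 was far above mutant replicate 2 for both.

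Of 22 listed enzymes that build chondroitin and dermatan sulfate chains, 0 were higher and 5 lower of 16 tested in columnar cells, where 26.2% of all genes tested were called. The counts were 3 higher and 5 lower of 17 in pre-hypertrophic cells (25.8% of all genes), 1 and 3 of 16 in resting cells (9.84%), 1 and 3 of 15 in hypertrophic cells (27%) and 0 and 0 of 16 in cycling cells (0.416%). The hypertrophic and columnar counts are near the shares over all genes. The medians in columnar, pre-hypertrophic and resting cells were -0.07, -0.06 and -0.12, against 0.00, -0.01 and -0.01 for all genes tested. In hypertrophic and cycling cells they were -0.35 and 0.14, against -0.01 and -0.01. Chst11, a chondroitin 4-sulfotransferase, was lower in 7 and Chsy3, a chondroitin synthase, in 7 of the 14 and 12 groups where they were tested. In columnar cells Chst11 was 1484 and 1532 against 2603 and 2346 CPM (-0.61, edgeR adjusted p = 1.5e-05), and Csgalnact1, which starts chondroitin chains, was 180.1 and 168 against 347 and 334 CPM (-0.86, edgeR adjusted p = 6.7e-06). Xylt1, which adds the first sugar to the core protein, was higher in osteoblasts (1.23, edgeR adjusted p = 9.6e-05) and metaphyseal stroma (1.11, edgeR adjusted p = 5.2e-05). Keratan sulfate enzymes were sparse, with 1 to 4 of 8 tested in a group. B4galt4 was lower in columnar chondrocytes (-2.02, edgeR adjusted p = 4.1e-05), and Chst2 was higher in pericyte-like mural cells (2.55, edgeR adjusted p = 1.9e-04) and reticular stroma (0.43, edgeR adjusted p = 0.0035).

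Among 11 enzymes that process or cleave the core proteins, Adamts5, an aggrecanase, was higher in columnar chondrocytes, with 50.7 and 49 against 10.2 and 13.3 CPM (2.17, edgeR adjusted p = 4.6e-06). It was also higher in pre-hypertrophic ones (2.56, edgeR adjusted p = 7.4e-07) and lower in articular chondrocytes, with 15.6 and 22.5 against 119.8 and 48.5 CPM and unlike controls (-1.996, edgeR adjusted p = 0.027), and metaphyseal stroma (-0.93, edgeR adjusted p = 2.4e-06). Bmp1, which trims the propeptide of several members, was lower in columnar (-0.69, edgeR adjusted p = 2.6e-04) and hypertrophic cells (-1.72, edgeR adjusted p = 1.6e-04). The list's counts were 1 higher and 2 lower of 7 in columnar, 4 and 1 of 7 in pre-hypertrophic and 4 and 0 of 7 in pericyte-like mural cells, with medians of -0.29, 0.33 and 1.24 against 0.00, -0.01 and 0.01 for all genes. Of all genes tested, 26.2%, 25.8% and 31.4% were called in those groups. Mmp13, a collagenase, was 298 and 275 against 2.45 and 10.9 CPM in the pericyte-like group (5.53, edgeR adjusted p = 1.6e-11), and Adamts4 rose in contractile mural cells (3.75, edgeR adjusted p = 2.4e-28). Of 13 ligands and receptors bound by core proteins, Tgfb1 was higher in 7 and lower in 0 of 14 groups. It was 147 and 168 against 58.5 and 59.1 CPM in metaphyseal stroma (1.502, edgeR adjusted p = 6.9e-09), 62.6 and 69.4 against 32.5 and 29 CPM in reticular stroma (1.16, edgeR adjusted p = 2.7e-09) and 111 and 103 against 29.4 and 32.6 CPM in pericyte-like mural cells (1.87, edgeR adjusted p = 5.6e-06). Igf1r, the receptor bound by decorin, was higher in 6 and lower in 1 of 14 groups. Egfr, Tlr4 and Ccn4 were each higher in 0 groups and lower in 1. The list had 4 higher and 1 lower of 7 tested in metaphyseal stroma (30.8% of all genes called), 5 and 0 of 7 in pericyte-like mural cells (31.4%) and 3 and 2 of 6 in reticular stroma (43.9%). The marker shifts given above for these groups stand beside the listed genes too, and their part was not tested.

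The genes whose levels followed each member most closely were named by Pearson's r of log2(CPM + 1) over 60 points, 15 groups in 4 libraries, which share libraries and depth and so serve as a description. Fmod was closest to Chad (r = 0.91), Meltf (0.91) and Nrtn (0.91), and Epyc to Syt8 (0.93), Fxyd2 (0.92) and Col9a1 (0.92), which is also a marker used for the chondrocyte gate. Dcn was closest to the tendon transcription factor gene Scx (0.84), Selenos (0.84) and Gabarap (0.82), and Bgn to Tmed3 (0.86), Vkorc1 (0.86) and Fam114a1 (0.83). Lum followed Gpsm2 (0.86), Ust (0.84) and Sgms2 (0.82), and Prelp followed Tmem254a (0.86), Thbs3 (0.85) and Atp6v0e (0.82). Ogn was nearest to Foxp2 (0.83), Mapk8ip1 (0.81) and Cys1 (0.81), and Omd to Wif1 (0.85, a marker of the metaphyseal gate), Fzd9 (0.81) and Fibin (0.79). Aspn was nearest to Axl (0.88), Ccdc3 (0.87) and Dock11 (0.84), and Kera to Pla2g2e (0.82), Gsc (0.82) and Clec3b (0.81, a fibroblast marker). Between members the closest pairs were Dcn and Lum (r = 0.79), Fmod and Omd (0.75) and Fmod and Epyc (0.70), and the most opposed was Aspn and Epyc (-0.49).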

How the data were processed

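Reads were trimmed and mapped by the authors with cutadapt 3.5 and STARsolo 2.7.10a to GRCm39 with GENCODE M26, extended by the CreERT2 and Rosa26-mTmG sequences. Exonic and intronic reads were counted and reads of several genes shared by expectation maximization, so the deposited matrices hold expected counts, unfiltered.

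Barcodes with at least 1000 UMIs and 800 genes, at most 15% mitochondrial and 5% hemoglobin UMIs were kept, and likely doublets removed. Cells were placed by the leading marker list, without any member in the lists. Counts were summed per library and group, rounded, and compared by edgeR 4.0.16 (quasi-likelihood, TMM, 2 libraries against 2) over genes that passed filterByExpr and were seen in at least 20% of the cells of a genotype. P-values were adjusted by Benjamini-Hochberg over all genes of the group, and calls made at 0.05. An exact permutation test of 2 against 2 cannot go below p = 0.333. A gene whose libraries separate fully by genotype reaches only that value, and the share of such genes over all genes was not computed. Scripts were tested on simulated data, where 2-fold changes were recovered for 91% of changed genes in columnar chondrocytes and 100% in metaphyseal stroma. In cycling chondrocytes it was 15.3%, so a member not called there may still differ. The endothelial group was added as a reference with the same test. Named genes were all members followed, all 7 other family genes or relatives, and at most 3 called genes per further list and group. Promoter windows came from RefSeq (GRCm38.p6). The profile of free RNA came from barcodes with 10 to 100 UMIs, and its amount in each group from hemoglobin transcripts (Hbb-bs, Hbb-bt, Hba-a1 and Hba-a2). These transcripts are also in the erythroid marker list, whose sum was higher in the mutants in every group. Alternatives were DESeq2 1.42.0, other size factors, gates, filters and clusters, and each library left out. Members and lists were chosen with earlier results of these data known.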

Additional observations from a re-analysis of the deposited data

Results flagged for a closer look

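Differences between cell groups were tested for 9 members as the genotype effect in 1 group minus the mean effect of the other 13, and 21 passed (edgeR adjusted p of at most 0.05 over all genes in that comparison). All values are log2 differences.

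In the growth plate, Omd stood above the mean in columnar (1.42), cycling (3.26) and pre-hypertrophic chondrocytes (2.25) and below it in metaphyseal stroma (-1.83) and osteoblasts (-1.24). In osteoblasts its own effect, 0.05 ± 0.26, was not called. The mutant libraries there, 217 and 82 CPM, lay above and below both controls (142 and 134 CPM). Its neighbour Ogn stood above the mean in articular chondrocytes (1.47) and below it in metaphyseal stroma (-0.98).

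Dcn differed in metaphyseal stroma (-1.14). Lum differed in reticular stroma (1.14), superficial fibroblasts (1.55) and hypertrophic chondrocytes (-1.01). Bgn differed in hypertrophic chondrocytes (-1.55) and, in the other direction, in pericyte-like mural cells (1.51). Fmod was above the mean in osteoblasts (1.88) and metaphyseal stroma (1.71) and below it in hypertrophic chondrocytes (-1.36), where its own change was -0.80 ± 0.36 and was not called.

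Prelp was above the mean in metaphyseal stroma (1.45) and osteoblasts (1.54), groups in which it was too sparse for a test of its own, and below it in pericyte-like mural cells (-2.17). In osteoblasts Prelp was 33.3 and 7.79 CPM in the mutants and 6.23 and 8.34 CPM in the controls, where mutant replicate 1 alone was above the controls, and the difference was 0.26 and did not pass without that library. Free RNA alone would give up to 82% of the Prelp level in osteoblasts. Aspn was below the mean in contractile (-1.50) and pericyte-like mural cells (-1.45) while its own effects there, -0.08 ± 0.10 and -0.08 ± 0.11, were not called. The mean that it is set against includes groups in which Aspn is near 0.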

How the results depend on the processing

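Of 47 calls of a member in a group, 17 were kept under every alternative that gave a value, 29 were lost under at least 1, and Prelp in pre-hypertrophic cells only turned its direction. The members called came to 22 in the chondrocyte zones, 2 in fibroblasts, 4 in osteoblasts, 11 in stroma, 6 in mural and 2 in endothelial cells. With genes of low counts kept in the test they came to 18, 1, 3, 5, 3 and 2, and 20 calls were lost. The 1 fibroblast call was none of the 2 above. By DESeq2 they came to 18, 2, 3, 9, 2 and 1. The share of all genes called fell too, for example from 30.8% to 2.44% without the filter and 16.7% by DESeq2 in metaphyseal stroma, from 43.9% to 7.72% and 23.1% in reticular stroma, and from 31.4% to 10.5% and 14.6% in pericyte-like mural cells. With cells named by clusters fibroblasts had 6, and with stricter barcode filters mural cells had 3. Endothelial calls fell to 1 with free RNA subtracted and with doublets kept. Clusters gave no value for cycling and hypertrophic chondrocytes, and the stricter gate none for articular ones, because a library held fewer than 10 of the cells. For the hypertrophic group this was so although the clusters named 1571 cells hypertrophic. The Lum and Bgn calls there were thus not tried with clusters. Leaving Ptgs2, Pde11a and Loxl4 out of the hypertrophic markers, chosen after seeing the data, lost 1 call (Lum in articular cells). The clusters turned the direction of Epyc (1.08) and Ogn (-0.17) in resting, of Prelp (0.27) in pre-hypertrophic and of Bgn (-0.042) in contractile mural cells, where a stricter gate gave -0.12, and the cause was not tested. Of the 10 members, 6 kept their highest control group under the clusters.

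Leaving out 1 library gave 16 to 27 calls in the chondrocyte zones, 2 to 3 in fibroblasts, 2 to 5 in osteoblasts (2 without either control), 9 to 10 in stroma, 2 to 5 in mural cells (2 without either mutant library) and 1 to 2 in endothelial cells (1 without control replicate 2). Differences between groups fell from 21 to between 11 and 16, with 11 without control replicate 2 and 13 without mutant replicate 1 or control replicate 1. Groups that differed in cell number came to 9 to 10.

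Libraries share only a replicate number, and deviations of same-numbered libraries correlated at -0.08 to 0.09. With the replicate number as a block the counts were 26, 2, 4, 10, 6 and 2, and 1 call was lost. Few cells were behind the cycling group (23 to 42 per library), the hypertrophic controls (27 and 20) and the articular controls (25 and 34), which limits the precision of values there.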

Other observations

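Cells with chondrocyte markers that could be placed in no zone (457 and 499 in the Lats2iECKO libraries, 366 and 376 in the controls) entered none of the comparisons. Omd was 1331 and 1448 CPM in the mutant and 301 and 389.8 CPM in the control cells, and Ogn was 249 and 215 against 68.9 and 123 CPM. Epyc was 140.4 and 109 against 286 and 307 CPM, and Prelp was 644 and 579 against 968 and 1016 CPM. Aspn was 26.8 and 38.7 against 2.2 and 3.0 CPM. Bgn, at 1791 and 1798 against 1930.0 and 1913 CPM, and Fmod, at 1403 and 1431 against 1399 and 1509 CPM, were closer between the genotypes. Cells with no leading marker list (1142 and 1262 in the Lats2iECKO libraries, 462 and 537 in the controls) were left out of the comparisons too. Omd did not rise there, at 259 and 399 CPM in the mutants and 415 and 392 CPM in the controls. Dcn was 5129 and 5380 against 9073 and 10179 CPM, Prelp 395 and 418 against 763 and 880 CPM, and Ogn 161 and 151 against 118 and 124 CPM. No test was run on either set of cells.

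The source of a member's UMIs among all placed cells also differed, which includes the number of cells caught in each group. Cell numbers relative to all placed cells were higher in mutant hypertrophic (log2 fold change 4.24), articular (2.40), superficial (1.44) and resting chondrocytes (1.21). So were those of pericyte-like mural cells (2.02), superficial fibroblasts (0.37) and endothelial cells (0.24). Osteoblasts (-1.43), reticular stroma (-0.83) and metaphyseal stroma (-0.51) were fewer, each group at an edgeR adjusted p of at most 0.05. Their part in the member changes was not tested. For Omd, 30.8 and 33.9% of the UMIs came from metaphyseal stroma and 26.05 and 22.5% from osteoblasts in the control libraries, against 3.2 and 4.6% and 2.9 and 1.4% in the mutants. Resting chondrocytes gave 37.7 and 30.5% of the Omd UMIs in the mutants and 14.3 and 14.5% in the controls. Lum came from osteoblasts for 48.1 and 45.4% in the controls and for 13.9 and 18.9% in the mutants. Superficial fibroblasts were the main source of Dcn in all 4 libraries, with 56.2 and 55.9% in the mutants and 42.5 and 42.2% in the controls.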
